A study of Mus musculus with 6 samples.

Results

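The nucleolar ribosome assembly factors described here are 55 genes, chosen by name, whose products process ribosomal RNA and build the small and large ribosomal subunits in the nucleolus. The choice was made with earlier results of these data known, so the counts below describe the list and do not test it. Of the 55, 54 had at least 1 probe set annotated to that gene alone, 108 probe sets in all among the 45101 of the array. Where a gene had several, the brightest by its mean over all 6 arrays stands for it. Mrto4, a large subunit factor, had only a probe set shared with a pair of pseudogenes and is not analysed here. In 53 of the 54 genes this brightest probe set had a log2 level above 4 on at least 3 arrays and was tested. Of these 53, 51 lay above 4 on all 6 arrays and the other 2 (Rrp12 and Pwp2) on 5, so no gene entered through double knockout arrays alone. Nle1, a large subunit factor, lay under 4 on every array (2.82, 3.23 and 3.38 in double knockout mice, against 2.76, 2.76 and 2.86 in wild type mice) and was not tested. Values by mouse are given here and below in the order of double knockout mice 1, 2 and 3 and wild type mice 1, 3 and 4.

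Male mice on a C57BL/6 background, age-matched at 7 to 10 weeks and caged one by one, gave the jejunum, the long middle stretch of small bowel where most fat is absorbed. The double knockout group (n = 3) lacked both Ifrd1, also called TIS7, and its relative Ifrd2, also called SKMc15, and the wild type group (n = 3) carried both genes. Ifrd1 and Ifrd2 are known as regulators of transcription, and Ifrd2 has also been found bound to idle ribosomes in rabbit reticulocytes. Both groups ate a synthetic diet with 42% of energy from milk fat and 0.2% of energy from cholesterol, as the labels put it, and tissue was taken after 3 weeks of it. The series title asks about lipid absorption and obesity, so ribosome assembly is one of the processes that the comparison of whole transcriptomes reaches. The labels do not say whether the genes were lost in all cells or which exons were removed. One Affymetrix whole-genome mouse array was run per animal; such a chip reports the level of a transcript as the log2 signal of a set of short probes. The number of arrays limits the precision of every value.

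The targeted transcripts were checked first. Ifrd2 had log2 levels of 2.64, 2.74 and 2.59 in double knockout mice, against 8.20, 8.32 and 8.61 in wild type mice, at least 20.8-fold lower when values under 4 are raised to 4 (limma adjusted p = 2.37e-05). Ifrd1 had log2 levels of 6.27, 4.80 and 4.85 in double knockout mice, against 10.00, 9.84 and 9.91 in wild type mice, a log2 fold change of -4.61 ± 0.38 (SE, limma adjusted p = 0.00894). In the arrays as a whole, 2.54% of 18013 tested probe sets rose and 1.93% fell in the double knockouts (4.47% in either direction, threshold 0.05 on the adjusted p of limma), and the median log2 fold change was 0.03. Lactase, Lct, the defining jejunal disaccharidase, was near the top of the scale in both groups, at 13.04 ± 0.05 in double knockout and 13.33 ± 0.04 in wild type jejunum (SD, n = 3 each), and all 15 enterocyte markers that matched a probe set were bright enough to test. The difference between 3′ and 5′ probe sets of the Gapdh and Actb control transcripts, a sign of RNA quality, was 0.60, 0.41 and 0.61 on the log2 scale on double knockout arrays, against 0.35, 0.49 and 0.36 on wild type arrays; the groups overlapped.

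A ribosome is assembled from RNA and protein in the nucleolus. RNA polymerase I makes a long precursor, small nucleolar ribonucleoproteins (snoRNPs) guide the chemical modification of its bases and sugars, a large complex called the small subunit processome folds and cuts the part that becomes the small subunit, and a separate set of factors matures the large subunit before export to the cytoplasm. In the lining of the small intestine, ribosomes are made most actively in the dividing cells of the crypts.

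Promoters of a few members are shown because the members moved together and their promoters can be compared letter by letter. The windows, from RefSeq on GRCm38.p6, run from 250 bases before to 50 after the annotated start, 5′ to 3′ on the strand of the gene. By rule they are the 4 members with the smallest p whose window holds CACGTG, the E-box that Myc and related factors can bind, and the 2 with the smallest p whose window does not. Capitals mark CACGTG, and CCGGAAG or its reverse complement, the core that Ets factors can bind.
Ccdc86 (chr19:10949217-10949516, minus strand): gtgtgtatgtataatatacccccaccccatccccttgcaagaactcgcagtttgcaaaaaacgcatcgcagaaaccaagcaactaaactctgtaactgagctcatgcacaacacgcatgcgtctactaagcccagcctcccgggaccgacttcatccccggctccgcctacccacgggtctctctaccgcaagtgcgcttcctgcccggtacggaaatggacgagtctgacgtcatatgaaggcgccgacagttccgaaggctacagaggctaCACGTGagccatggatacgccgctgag
Utp20 (chr10:88826765-88827064, minus strand): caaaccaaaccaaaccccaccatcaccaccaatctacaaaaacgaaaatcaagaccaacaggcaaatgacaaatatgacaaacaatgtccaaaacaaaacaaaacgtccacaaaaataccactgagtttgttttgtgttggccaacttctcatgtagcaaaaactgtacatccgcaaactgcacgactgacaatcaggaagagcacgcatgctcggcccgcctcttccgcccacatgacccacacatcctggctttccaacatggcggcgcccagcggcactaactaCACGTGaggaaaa
Nop2 (chr6:125131633-125131932, plus strand): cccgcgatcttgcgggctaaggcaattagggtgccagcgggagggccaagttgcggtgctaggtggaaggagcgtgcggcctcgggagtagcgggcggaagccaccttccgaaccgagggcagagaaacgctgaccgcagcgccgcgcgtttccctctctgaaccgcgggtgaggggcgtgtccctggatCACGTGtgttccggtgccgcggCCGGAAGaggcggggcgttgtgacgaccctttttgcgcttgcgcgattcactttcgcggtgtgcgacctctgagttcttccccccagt
Utp18 (chr11:93885717-93886016, minus strand): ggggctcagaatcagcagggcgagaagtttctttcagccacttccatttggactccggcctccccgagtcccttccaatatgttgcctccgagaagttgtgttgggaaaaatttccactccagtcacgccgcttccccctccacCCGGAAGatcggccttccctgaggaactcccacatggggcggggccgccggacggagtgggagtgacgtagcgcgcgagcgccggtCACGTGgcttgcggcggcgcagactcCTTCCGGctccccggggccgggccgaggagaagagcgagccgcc
Nop56 (chr2:130274162-130274461, plus strand): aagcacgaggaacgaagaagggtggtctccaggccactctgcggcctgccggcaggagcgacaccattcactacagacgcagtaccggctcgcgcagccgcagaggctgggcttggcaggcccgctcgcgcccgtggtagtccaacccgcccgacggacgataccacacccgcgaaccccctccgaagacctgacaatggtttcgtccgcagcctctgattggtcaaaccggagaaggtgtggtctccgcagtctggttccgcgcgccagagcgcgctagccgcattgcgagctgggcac
Nhp2 (chr11:51619523-51619822, plus strand): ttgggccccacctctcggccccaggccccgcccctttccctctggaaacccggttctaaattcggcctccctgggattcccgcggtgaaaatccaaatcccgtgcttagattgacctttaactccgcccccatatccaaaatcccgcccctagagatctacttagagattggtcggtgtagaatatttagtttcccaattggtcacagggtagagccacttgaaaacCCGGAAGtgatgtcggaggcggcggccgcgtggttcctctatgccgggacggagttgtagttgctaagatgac

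CACGTG began 23 and 37 bases after the start in Ccdc86 and Utp20, and 60 and 20 bases before it in Nop2 and Utp18. CCGGAAG began 38 bases before the start in Nop2, 23 before it in Nhp2, and 106 before and 6 after it in Utp18. Neither motif was found in the window of Nop56, which is a statement about these letters only. A promoter window was matched for 45 of the 55 members. CACGTG, searched on both strands, was in 11 of the 45 (24.4%), against 8.09% of 27025 genes of any kind in the same table. It was in 3 of 22 members that rose and in 8 of the other 23, which include members not tested. CCGGAAG, on both strands, was in 18 of 45 (40%), 9 of the 22 that rose and 9 of the other 23, against 9.93% of all genes. The letters TATAAA, searched on both strands over the whole window, were in the windows of 2 members (4.44%), Dkc1 and Pes1, against 15.7% of all genes. Such a match is not by itself a TATA box. The palindromes named after the factors NRF1 and ZBTB33, searched on both strands, were in 0 of 45 windows, against 1.07% and 0.525% of all genes. CACGTG and CCGGAAG do not overlap in the printed windows. The table of all genes also holds non-coding and predicted genes, so its shares describe a broader mix of promoters than those of the members.

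Assembly factors were higher in double knockout jejunum. The list was chosen with earlier results of these data known, so its counts beside the shares of all probe sets are a description. Of the 53 tested genes, 26 rose, 0 fell and 27 did not pass by limma's test with Benjamini-Hochberg adjustment over all 18013 probe sets, where 2.54% of all probe sets were called higher (1.93% lower, 4.47% either way). At an unadjusted p of at most 0.05, 47 were higher and 0 lower, against 15.3% higher and 11.8% lower of all probe sets. The median log2 fold change of the 53 was 0.53, and 52 had a positive one; over all probe sets tested the median was 0.03 and 53.6% were positive. With Nle1 included, in the fit without the filter on dim probe sets, 53 of 54 were positive with a median of 0.53. All 3 double knockout values lay above all 3 wild type values for 48 of the 53 genes, a separation that 19.5% of all probe sets showed. Log2 fold changes ran from -0.03 for Rpf2 to 1.34 for Rrp12, and 6 genes reached a 2-fold difference, of which 4 (Ccdc86, Bysl, Nolc1 and Heatr1) passed. In whole tissue, more cells that express these genes and more RNA per cell cannot be told apart. The summed linear signal of the 26 proliferation markers with a probe set was also higher, at 13080 to 14214 in double knockout, against 9860 to 10496 in wild type jejunum. Its part in the result was not tested.

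How many single genes passed depended on single mice. Without double knockout mouse 1, 2 or 3, the number of assembly factors that passed was 1, 12 or 0; without wild type mouse 1, 3 or 4 it was 0, 2 or 0. Of the 26 genes called with all mice, 9 (Nop56, Nop58, Nhp2, Heatr1, Bysl, Nop2, Rrs1, Nip7 and Ddx21) passed without double knockout mouse 2, Nop56 and Heatr1 without wild type mouse 3, and Wdr12 without double knockout mouse 1. At an unadjusted p of at most 0.05, between 40 and 45 members were higher and 0 lower in these fits, and the median log2 fold change lay between 0.51 and 0.59. The share of all probe sets called higher was between 0.0611% and 1.09% in the same fits. With the 3′ to 5′ difference as a covariate, 0 members passed and 37 were higher at an unadjusted p of at most 0.05 (9.02% of all probe sets), with a median of 0.45.

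**Figure D1:**
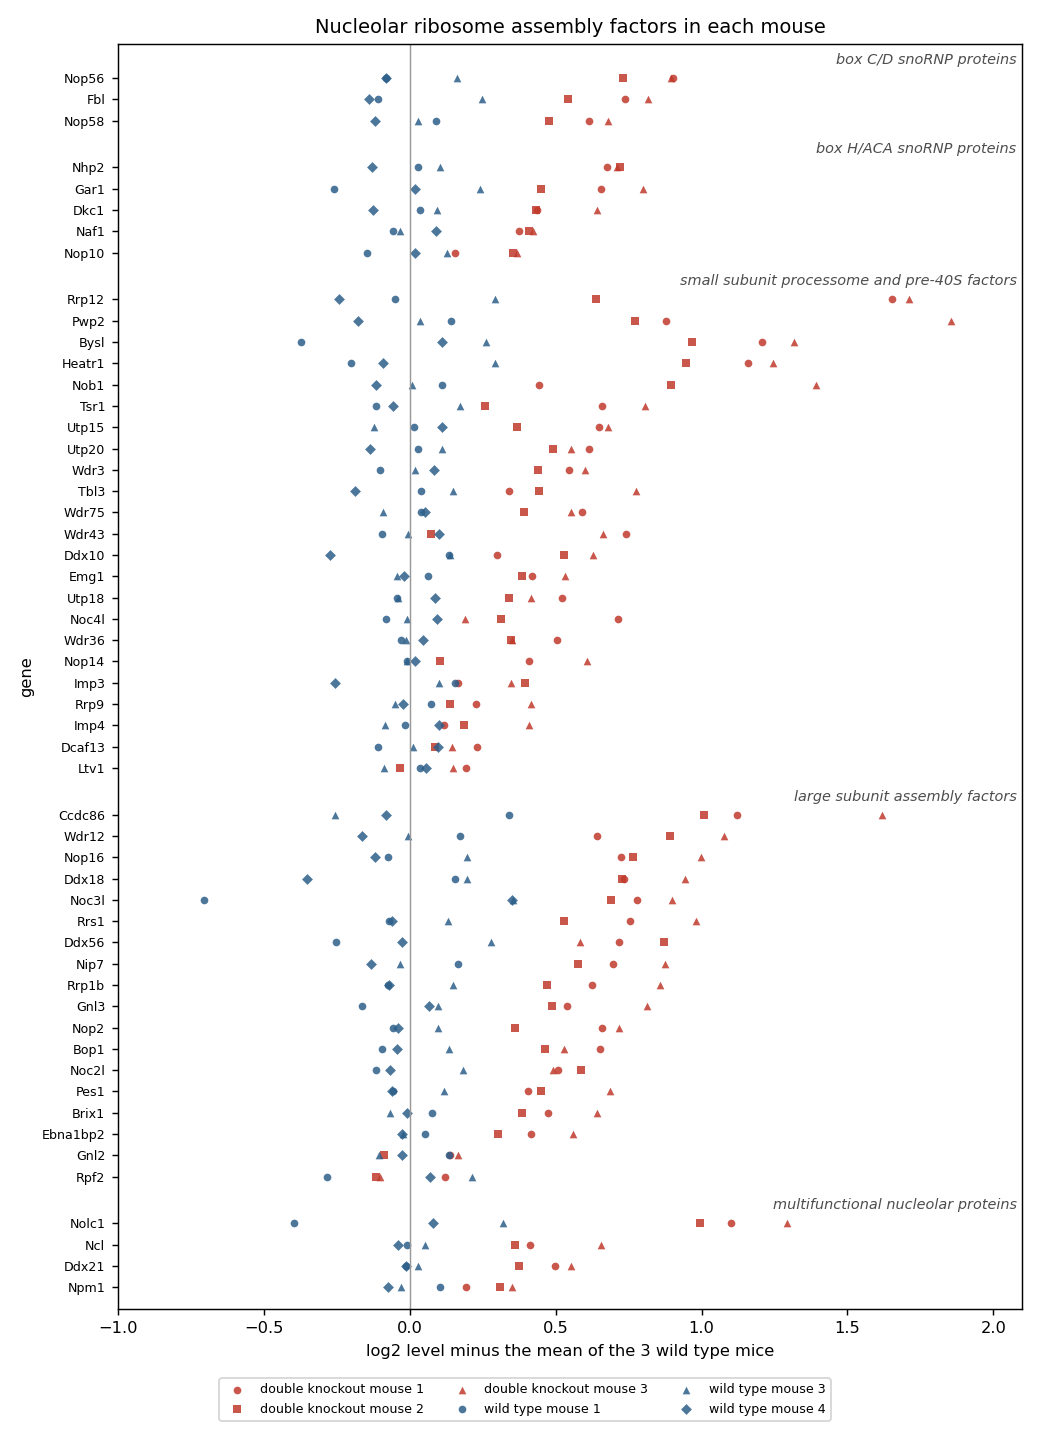
Level of each of the 53 tested assembly factors in each mouse, as the log2 level minus the mean of the 3 wild type mice, grouped by role and ordered within a role by log2 fold change; red symbols are double knockout mice, blue symbols wild type mice, and the shape gives the mouse number. In 48 rows all red symbols lie to the right of all blue ones, and double knockout mouse 3 has the highest of the 6 values in 38 rows.

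The mice ranked alike across many members. Relative to the wild type mean, the median over the 53 genes was 0.59, 0.44 and 0.66 in double knockout mice and -0.03, 0.09 and -0.04 in wild type mice on the log2 scale. Double knockout mouse 3 had the highest of the 6 values for 38 genes, double knockout mouse 1 for 10 and double knockout mouse 2 for 4, and a wild type mouse (mouse 3, in Rpf2) for 1. Within its group, double knockout mouse 2 was the lowest for 38 of the 53 genes. The lowest of the 6 values was in wild type mouse 1 for 23 genes, mouse 4 for 21 and mouse 3 for 9. Wild type mouse 3 was the highest of its group for 28 genes. The 3′ to 5′ difference, a sign of RNA quality, was likewise lowest of its group in double knockout mouse 2 (0.41, against 0.60 and 0.61). It was highest of its group in wild type mouse 3 (0.49, against 0.35 and 0.36). The part of RNA quality in this ranking was not tested. Between pairs of members, deviations from the group means had a median correlation of 0.34 over the 6 arrays, a description only, since the members share the same arrays. The errors of the members are thus not independent of one another.

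Box C/D snoRNPs guide methylation of ribose in ribosomal RNA. Their proteins rose in all 3 members (median log2 fold change 0.70), where 2.54% of all probe sets were called higher. Of the 3, 2 passed without double knockout mouse 2, 1 without wild type mouse 3 and 0 without any other single mouse. Nop56, a core scaffold protein of these particles, had log2 levels of 9.33, 9.16 and 9.32 in double knockout mice, against 8.35, 8.59 and 8.35 in wild type mice. The groups did not overlap, and the lowest double knockout value exceeded the highest wild type value by 0.57. The log2 fold change was 0.84 ± 0.11 (SE), or 1.79-fold, with a limma adjusted p of 0.0189, the smallest among the members. Nop58, the related protein that sits beside Nop56, had log2 levels of 9.20, 9.06 and 9.26 in double knockout mice, against 8.67, 8.61 and 8.46 in wild type mice, again without overlap. It rose by 0.59 ± 0.10 log2 units (limma adjusted p = 0.0322). Fibrillarin, Fbl, the methyltransferase itself, had log2 levels of 10.28, 10.08 and 10.36 in double knockout mice, against 9.43, 9.78 and 9.40 in wild type mice, with wild type mouse 3 the highest of its group. It rose by 0.70 ± 0.14 log2 units (limma adjusted p = 0.0438). The other probe sets of Nop56 and Fbl also rose, by 0.70 ± 0.13 and 0.66 ± 0.11 (limma adjusted p 0.0369 and 0.0342).

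Box H/ACA snoRNPs guide the conversion of uridine to pseudouridine. Of the 5 box H/ACA snoRNP proteins, 3 rose, 0 fell and 2 did not pass (median 0.50). Of all probe sets, 2.54% were called higher. Nhp2 alone passed without double knockout mouse 2, and 0 passed without any other single mouse. Nhp2, an RNA-binding core protein, was almost equal in the double knockout mice, with log2 levels of 9.80, 9.85 and 9.84 in double knockout mice, against 9.16, 9.23 and 9.0 in wild type mice. Its log2 fold change was 0.70 ± 0.09 (1.63-fold, limma adjusted p = 0.0209), and its other probe set rose by 0.63 ± 0.10 log2 units (limma adjusted p = 0.0295). Dkc1, the pseudouridine synthase mutated in dyskeratosis congenita, had log2 levels of 9.16, 9.15 and 9.36 in double knockout mice, against 8.75, 8.81 and 8.59 in wild type mice. It rose by 0.50 ± 0.10 log2 units with a limma adjusted p of 0.0496, just within the threshold. A further Dkc1 probe set rose by 0.63 ± 0.12 and another had a log2 fold change of 0.09 ± 0.13, with limma adjusted p-values of 0.0383 and 0.671. Naf1, an assembly factor that gives way to Gar1 in the mature particle, rose by 0.40 ± 0.08 log2 units (limma adjusted p = 0.0479), with tightly grouped log2 levels of 7.19, 7.23 and 7.24 in double knockout mice, against 6.76, 6.79 and 6.91 in wild type mice. Gar1 itself had a wider spread, with log2 levels of 8.65, 8.45 and 8.80 in double knockout mice, against 7.74, 8.24 and 8.02 in wild type mice, and did not pass (log2 fold change 0.63 ± 0.15, 95% interval 0.26 to 1.00, limma adjusted p = 0.0672). Nop10, the smallest core protein, had a log2 fold change of 0.29 ± 0.11 with a 95% interval of 0.03 to 0.55 (limma adjusted p = 0.151).

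Among the 23 small subunit factors, 6 rose, 0 fell and 17 did not pass, where 2.54% of all probe sets were called higher. All 23 had positive fold changes (median 0.49), against 53.6% of all probe sets. Without 1 mouse between 0 and 5 of the 23 factors passed, the 5 without double knockout mouse 2. Heatr1, Wdr43, Wdr75 and Utp15 belong to the subcomplex of the processome that binds the precursor first and also supports its transcription. Heatr1 had log2 levels of 6.38, 6.16 and 6.46 in double knockout mice, against 5.01, 5.51 and 5.12 in wild type mice. No value of either group came within 0.65 of the other group, and the log2 fold change was 1.12 ± 0.15 (2.17-fold, limma adjusted p = 0.0231). Wdr75 rose by 0.51 ± 0.09 log2 units, with log2 levels of 7.38, 7.18 and 7.34 in double knockout mice, against 6.83, 6.70 and 6.84 in wild type mice (limma adjusted p = 0.0385). Utp15 missed the threshold with a log2 fold change of 0.57 ± 0.12 (95% interval 0.28 to 0.85, limma adjusted p = 0.0510). On its other probe set the groups overlapped, with a log2 fold change of 0.17 ± 0.15 (limma adjusted p = 0.505). On the brightest probe set of Wdr43, double knockout mouse 2 lay with the wild type mice, with log2 levels of 8.18, 7.52 and 8.10 in double knockout mice, against 7.35, 7.44 and 7.54 in wild type mice, and the groups overlapped. Its log2 fold change was 0.49 ± 0.18 (limma adjusted p = 0.151). On a dimmer Wdr43 probe set the groups did not overlap, with log2 levels of 7.14, 7.15 and 7.46 in double knockout mice, against 6.67, 6.86 and 6.61 in wild type mice and a log2 fold change of 0.54 ± 0.12 (limma adjusted p = 0.0595).

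Wdr3, Wdr36, Tbl3, Pwp2 and Utp18 form a second subcomplex of repeat proteins, of which Wdr3 rose and the others did not pass. Wdr3 had log2 levels of 7.87, 7.76 and 7.92 in double knockout mice, against 7.22, 7.34 and 7.40 in wild type mice. Its log2 fold change was 0.53 ± 0.09 (limma adjusted p = 0.0344). Utp18 and Wdr36 had log2 fold changes of 0.43 ± 0.09 and 0.40 ± 0.09 with limma adjusted p-values of 0.0521 and 0.0524. Pwp2 had a larger difference and a larger spread, with log2 levels of 5.04, 4.93 and 6.01 in double knockout mice, against 4.30, 4.19 and 3.98 in wild type mice. Double knockout mouse 3 was well above the other two, and the log2 fold change of 1.17 ± 0.29 did not pass (95% interval 0.48 to 1.85, limma adjusted p = 0.0676). Tbl3 had a log2 fold change of 0.52 ± 0.15 (limma adjusted p = 0.0887).

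Other factors of the processome were mixed. Utp20, a long repeat protein needed for early cuts of the precursor, rose by 0.55 ± 0.10 log2 units, with log2 levels of 6.61, 6.49 and 6.55 in double knockout mice, against 6.02, 6.11 and 5.86 in wild type mice (limma adjusted p = 0.0344). Emg1, the methyltransferase that modifies a pseudouridine of the small subunit RNA, rose by 0.44 ± 0.08 log2 units, with log2 levels of 10.81, 10.78 and 10.93 in double knockout mice, against 10.46, 10.35 and 10.37 in wild type mice (limma adjusted p = 0.0415). Imp3 and Imp4, partners in one complex on the U3 snoRNA, had log2 fold changes of 0.30 ± 0.13 and 0.24 ± 0.11, with 95% intervals of -0.02 to 0.62 and -0.02 to 0.50 that include 0. Rrp9, a protein of the U3 particle, had a log2 fold change of 0.26 ± 0.10 (limma adjusted p = 0.161). Its gene lies on the chromosome of Ifrd2, as do those of Imp3 and Ddx10, and is the nearest of the 3 to it. Dcaf13, known in yeast as Sof1, had a log2 fold change of 0.15 ± 0.09, with groups that overlapped at log2 levels of 9.22, 9.07 and 9.13 in double knockout mice, against 8.88, 9.0 and 9.08 in wild type mice. Nop14, its partner Noc4l and the helicase Ddx10 did not pass, with log2 fold changes of 0.37 ± 0.13, 0.41 ± 0.15 and 0.49 ± 0.15 (limma adjusted p 0.143, 0.146 and 0.105).

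Of the factors that act late on the small subunit, only Bysl passed among Bysl, Ltv1, Nob1, Tsr1 and Rrp12. Bysl, the counterpart of yeast Enp1, had log2 levels of 6.54, 6.30 and 6.65 in double knockout mice, against 4.96, 5.59 and 5.44 in wild type mice. The wild type values spread more widely than the double knockout values but did not reach them, and the log2 fold change was 1.16 ± 0.18 (2.24-fold, limma adjusted p = 0.0282). Rrp12, which takes part in export of both subunits, had the highest log2 fold change of the members and did not pass. It had log2 levels of 5.79, 4.78 and 5.85 in double knockout mice, against 4.09, 4.43 and 3.89 in wild type mice. Double knockout mouse 2 was far below the other two, and the log2 fold change was 1.34 ± 0.30 with a 95% interval of 0.61 to 2.06 (limma adjusted p = 0.0587). Nob1, the enzyme that makes the final cut of the small subunit RNA, also spread widely among double knockouts, with log2 levels of 4.94, 5.40 and 5.89 in double knockout mice, against 4.61, 4.51 and 4.38 in wild type mice. Its log2 fold change was 0.91 ± 0.23 (95% interval 0.36 to 1.46, limma adjusted p = 0.0714). Tsr1, a protein related to GTPases, had a log2 fold change of 0.57 ± 0.16 (limma adjusted p = 0.0887). Ltv1, which leaves the particle shortly before it matures, had overlapping groups, with log2 levels of 8.72, 8.50 and 8.68 in double knockout mice, against 8.56, 8.44 and 8.58 in wild type mice, and a 95% interval of -0.13 to 0.33 around a log2 fold change of 0.10.

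Of 18 large subunit factors tested, 12 rose, 0 fell and 6 did not pass (median 0.63). Of all probe sets, 2.54% were called higher. Without 1 mouse between 0 and 3 of the 18 factors passed, the 3 without double knockout mouse 2. The PeBoW complex, made of Pes1, Bop1 and Wdr12, is needed for processing of large subunit RNA. Bop1 rose by 0.55 ± 0.10 log2 units, with log2 levels of 8.24, 8.05 and 8.11 in double knockout mice, against 7.49, 7.72 and 7.54 in wild type mice (limma adjusted p = 0.0387). Wdr12 had log2 levels of 6.56, 6.81 and 6.99 in double knockout mice, against 6.09, 5.91 and 5.75 in wild type mice on its brightest probe set. It rose by 0.87 ± 0.14 log2 units there (limma adjusted p = 0.0308) and had a log2 fold change of 0.31 ± 0.23 on another probe set (limma adjusted p = 0.422). Pes1 had non-overlapping groups, with log2 levels of 7.39, 7.44 and 7.67 in double knockout mice, against 6.93, 7.10 and 6.92 in wild type mice, and missed the threshold with a log2 fold change of 0.51 ± 0.11 (95% interval 0.25 to 0.77, limma adjusted p = 0.0522).

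Ccdc86, the counterpart of yeast Cgr1, had the largest change among the members that passed. Its log2 levels were 6.15, 6.03 and 6.65 in double knockout mice, against 5.37, 4.77 and 4.94 in wild type mice, and double knockout mouse 3 was the highest. The log2 fold change was 1.25 ± 0.21 (2.38-fold, limma adjusted p = 0.0327), and a further probe set rose by 1.26 ± 0.15 log2 units (limma adjusted p = 0.0164). Nop16, a protein of the early large subunit particle, rose by 0.83 ± 0.12 log2 units, with log2 levels of 6.86, 6.90 and 7.13 in double knockout mice, against 6.06, 6.33 and 6.01 in wild type mice (limma adjusted p = 0.0267). Rrs1, which with Rpf2 loads a small ribonucleoprotein onto the particle, had log2 levels of 9.39, 9.17 and 9.62 in double knockout mice, against 8.57, 8.77 and 8.58 in wild type mice. It rose by 0.76 ± 0.13 log2 units on that probe set and by 0.75 ± 0.12 log2 units on its other one (limma adjusted p 0.0363 and 0.0308).

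Rpf2, the partner of Rrs1, was the exception on its brightest probe set, with overlapping groups at log2 levels of 6.73, 6.50 and 6.51 in double knockout mice, against 6.33, 6.83 and 6.68 in wild type mice. The log2 fold change there was -0.03 ± 0.15 (limma adjusted p = 0.906). Its other tested probe sets differed from that one: one rose by 0.89 ± 0.11 log2 units (limma adjusted p = 0.0190) and one had a log2 fold change of 0.52 ± 0.17 (limma adjusted p = 0.119), while the fourth was too dim to test. The probe set that rose had log2 levels of 6.83, 6.58 and 6.94 in double knockout mice, against 5.94, 5.87 and 5.85 in wild type mice, with no overlap. No single direction can be given for Rpf2 from these probe sets.

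Further large subunit factors also rose, with the following differences on the log2 scale. The helicase Ddx18 rose by 0.80 ± 0.16, Nip7 by 0.72 ± 0.12, Rrp1b by 0.65 ± 0.13, the GTPase nucleostemin (Gnl3) by 0.61 ± 0.12, the cytosine methyltransferase Nop2 by 0.58 ± 0.12, Noc2l, whose yeast counterpart pairs with that of Noc3l, by 0.53 ± 0.10 and Brix1 by 0.50 ± 0.10, with limma adjusted p-values from 0.0322 for Nip7 to 0.0492 for Nop2. In all 7 the groups did not overlap on the brightest probe set. The genes were called on that same probe set, so the separation is not further support. Other tested probe sets of Ddx18, Noc2l and Brix1 had smaller log2 fold changes of 0.39 ± 0.09, 0.23 ± 0.11 and 0.34 ± 0.11. These did not pass (limma adjusted p 0.0598, 0.227 and 0.116), while that of Rrp1b rose by 0.92 ± 0.17 (limma adjusted p = 0.0369). Nip7 had log2 levels of 8.17, 8.05 and 8.35 in double knockout mice, against 7.64, 7.44 and 7.34 in wild type mice. Gnl3, known for its level in stem and dividing cells, had log2 levels of 8.94, 8.88 and 9.21 in double knockout mice, against 8.23, 8.50 and 8.46 in wild type mice. Ebna1bp2, the counterpart of yeast Ebp2, and the helicase Ddx56 just missed the threshold, with log2 fold changes of 0.43 ± 0.10 and 0.72 ± 0.15 (limma adjusted p 0.0574 and 0.0522). Noc3l had 1 low wild type value among log2 levels of 5.56, 5.48 and 5.69 in double knockout mice, against 4.08, 5.14 and 5.14 in wild type mice, and did not pass (log2 fold change 0.79 ± 0.29, limma adjusted p = 0.144). Gnl2, a GTPase of the large subunit, had overlapping groups and a 95% interval of -0.19 to 0.34 around a log2 fold change of 0.07.

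Of 4 abundant nucleolar proteins with several functions, 2 rose, 0 fell and 2 did not pass (median 0.48). Of all probe sets, 2.54% were called higher. In all 4 every double knockout value lay above every wild type value, as in 19.5% of all probe sets. Ddx21 alone passed without double knockout mouse 2, and 0 passed without any other single mouse. Nolc1, a chaperone of snoRNPs that shuttles through the nucleolus, had log2 levels of 7.97, 7.86 and 8.16 in double knockout mice, against 6.47, 7.19 and 6.95 in wild type mice. It rose by 1.13 ± 0.19 log2 units (2.19-fold, limma adjusted p = 0.0326), and its other tested probe set had a log2 fold change of 0.81 ± 0.19 (limma adjusted p = 0.0617). Ddx21, a helicase that acts on ribosomal RNA transcription and processing, rose by 0.48 ± 0.08 and, on its other probe set, by 0.83 ± 0.14 log2 units (limma adjusted p 0.0361 and 0.0309). Its log2 levels were 8.11, 7.98 and 8.16 in double knockout mice, against 7.59, 7.64 and 7.59 in wild type mice. Nucleolin, Ncl, was bright, with log2 levels of 11.54, 11.49 and 11.78 in double knockout mice, against 11.12, 11.18 and 11.08 in wild type mice, without overlap. It did not pass with a log2 fold change of 0.48 ± 0.10 (95% interval 0.23 to 0.72, limma adjusted p = 0.0547), and its 3 other tested probe sets had log2 fold changes between 0.21 and 0.36. Nucleophosmin, Npm1, had log2 levels of 11.84, 11.95 and 12.00 in double knockout mice, against 11.75, 11.62 and 11.57 in wild type mice, a log2 fold change of 0.28 ± 0.09 (95% interval 0.07 to 0.50, limma adjusted p = 0.113). Whether probes of such abundant genes also detect processed pseudogenes was not tested.

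**Figure D2:**
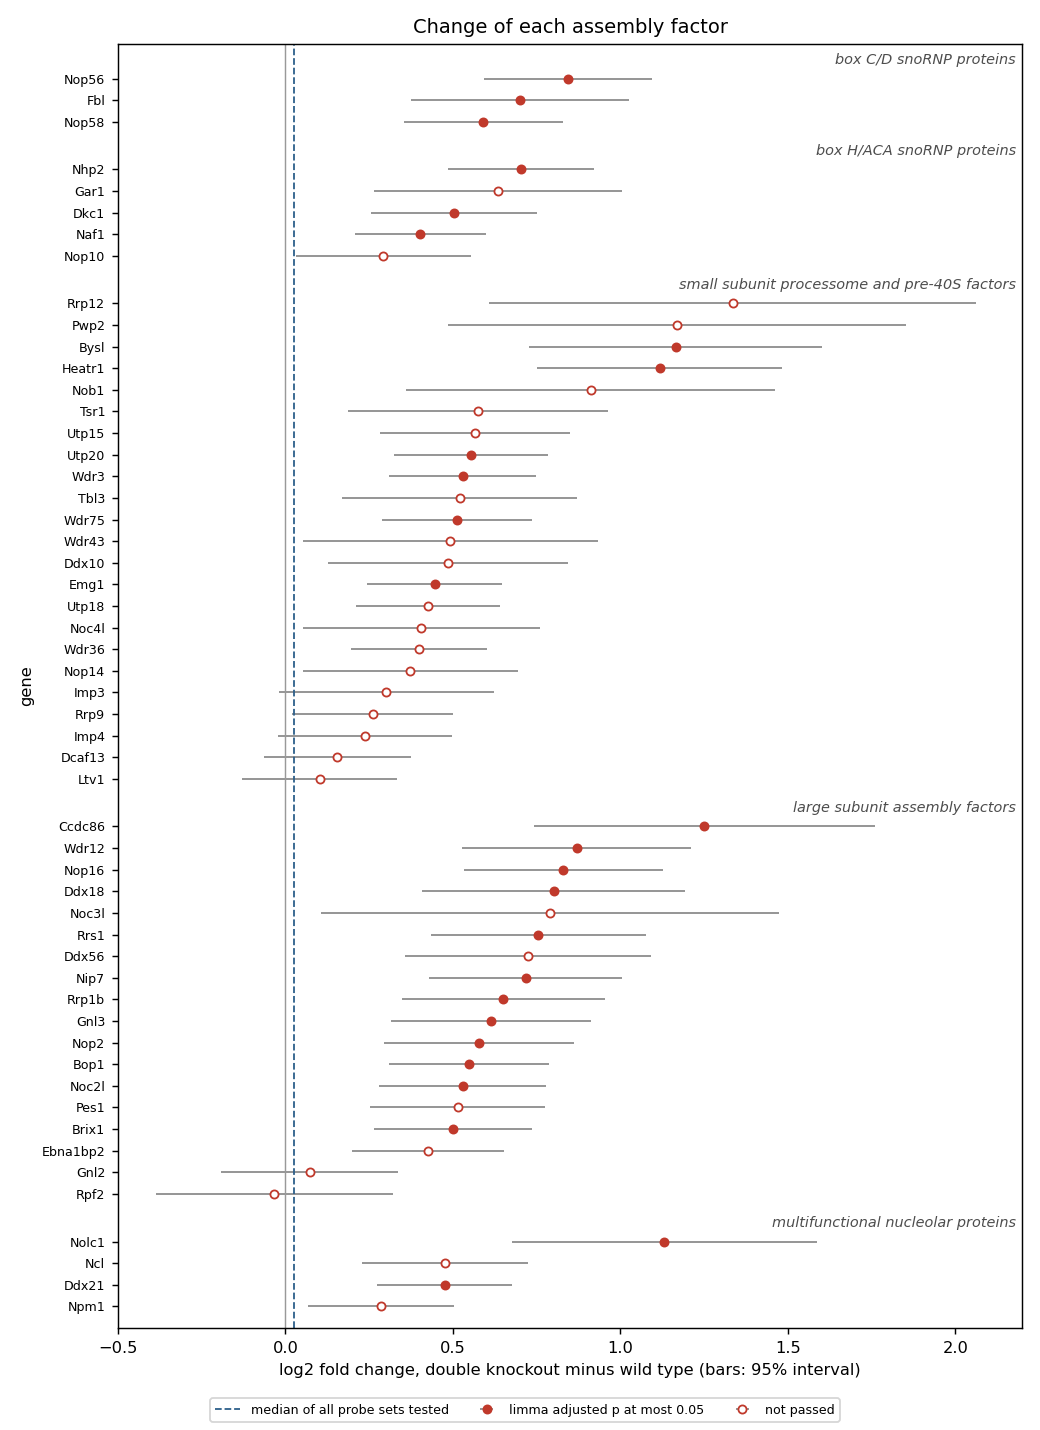
Log2 fold change of each tested assembly factor, double knockout minus wild type, with its 95% interval from limma; filled points passed at an adjusted p of at most 0.05, and the dashed line is the median of all probe sets tested (0.03). Of 53 intervals, 47 lie wholly above 0, and the 6 that include 0 are those of Imp3, Imp4, Dcaf13, Ltv1, Gnl2 and Rpf2.

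Of the 54 members with a probe set, 36 had more than 1, and 30 of these 54 further probe sets were bright enough to test. They gave 9 higher calls, 0 lower calls and 21 that did not pass, where 2.54% of all probe sets were called higher. The median log2 fold change of the 30 was 0.52, and 29 of the 30 were positive, against 53.6% of all probe sets. The negative one belonged to Imp4 (log2 fold change -0.06 ± 0.15, limma adjusted p = 0.814). The 9 that rose measure Nop56, Fbl, Nhp2, Dkc1, Rrp1b, Rrs1, Rpf2, Ccdc86 and Ddx21. Of these genes, Rpf2 alone did not rise on its brightest probe set. Probe sets of 1 gene can overlap in sequence and were read on the same arrays, so they are repeat measurements and not further mice.

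**Figure D3:**
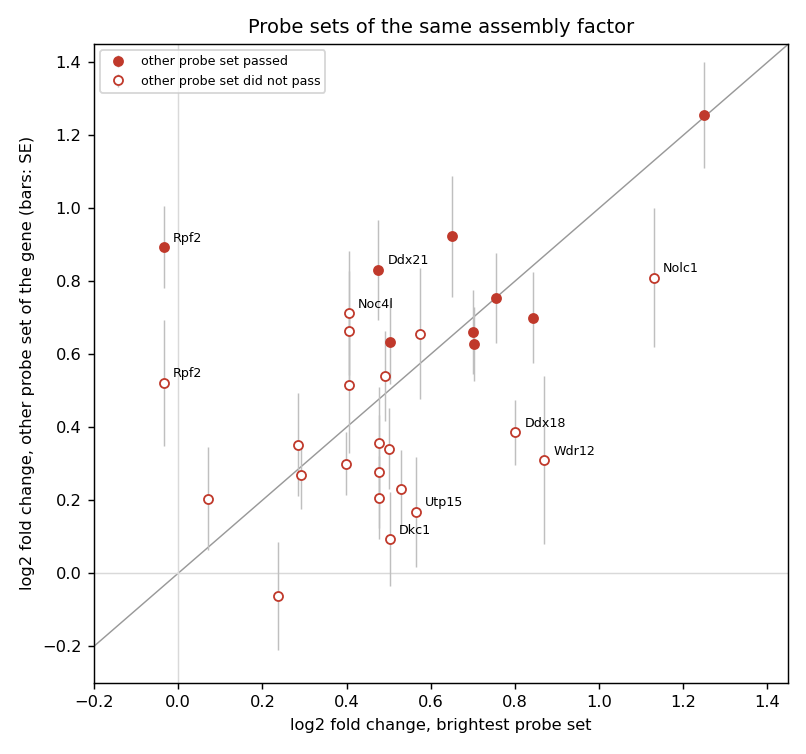
Log2 fold change of each further tested probe set of a member (vertical axis, bars give the SE) against that of the gene's brightest probe set (horizontal axis), with the line of equality; filled points passed. Of 30 points 29 lie above 0 on the vertical axis, and the Rpf2 points, at 0.89 and 0.52 against -0.03, lie farthest above the line.

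Other genes of the same pathway, listed by textbook role, were read in the same fit. Of 33 further small subunit factors tested, 9 rose, 0 fell and 24 did not pass (median log2 fold change 0.35); the smallest p-values were those of Utp14a, Nop9 and the RNA acetyltransferase Nat10, with log2 fold changes of 0.77 ± 0.09, 0.91 ± 0.13 and 0.75 ± 0.10 (limma adjusted p 0.0186, 0.0244 and 0.0228). Of 43 further large subunit factors, 10 rose, 0 fell and 33 did not pass (median 0.39), led by Rrp15, the methyltransferase Ftsj3 and the RNA kinase Nol9, with log2 fold changes of 0.89 ± 0.10, 0.78 ± 0.10 and 0.70 ± 0.09 (limma adjusted p 0.0151, 0.0186 and 0.0209). Ftsj3 was dim, with log2 levels of 4.95, 4.85 and 5.04 in double knockout mice, against 4.27, 4.15 and 4.07 in wild type mice. Nol9 had log2 levels of 4.64, 4.73 and 4.53 in double knockout mice, against 4.01, 3.90 and 3.89 in wild type mice. Nol9 thus entered the test through the double knockout arrays, and its call carries little information. The share of all probe sets called higher was 2.54%. Leaving out 1 mouse left between 0 and 7 of the small subunit list and between 0 and 5 of the large subunit list higher, each with the most calls without double knockout mouse 2.

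Among chaperones that assemble snoRNPs, 4 of 8 tested genes rose, 0 fell and 4 did not pass (median 0.66). Of all probe sets, 2.54% were called higher, which is also the share to set beside the lists that follow. The paired ATPases Ruvbl1 and Ruvbl2 rose by 0.80 ± 0.09 and 1.04 ± 0.21, Rpap3, which binds them, by 0.71 ± 0.13 log2 units, and Znhit6, a box C/D assembly factor, by 0.70 ± 0.10 log2 units (limma adjusted p 0.0151, 0.0489, 0.0412 and 0.0249). Ruvbl1 and Ruvbl2 also serve other complexes. Of the nuclear exosome, which trims ribosomal RNA, 3 of 13 rose and 0 fell (median 0.26), on the log2 scale Exosc1 by 0.62 ± 0.09, Exosc8 by 0.70 ± 0.11 and the nuclease Dis3 by 0.92 ± 0.14 (limma adjusted p 0.0249, 0.0282 and 0.0265). Of the proteins of RNase MRP and RNase P, 1 of 7 rose, Rpp30 by 0.86 ± 0.10 log2 units (limma adjusted p = 0.0172), and 0 fell (median 0.45). In 5 of these 7 the double knockout values all lay above the wild type values, as in 19.5% of all probe sets. With the stricter filter 3 of the 5 genes left passed (5.58% of all probe sets called higher). With values under 4 raised to 4, 3 of 7 passed (2.7%). With limma's trended and robust variance prior 4 passed (5.37%), and with the mean of a gene's probe sets also 4 (3.95% of all that was tested). Without 1 mouse, between 0 and 2, between 0 and 1 and between 0 and 1 genes of these 3 lists passed; the calls that were left came without double knockout mouse 1 or 2.

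The steps before and after assembly are set beside these values, without a test of the difference between lists. In the RNA polymerase I machinery, 0 of 10 genes passed by limma and 4 were higher and 0 lower at an unadjusted p of at most 0.05, against 15.3% higher and 11.8% lower of all probe sets (median 0.17). In 6 of the 10 all double knockout values lay above all wild type values, as in 19.5% of all probe sets. The initiation factor Rrn3 and the subunits Polr1e and Polr1b had log2 fold changes of 0.34 ± 0.10, 0.71 ± 0.22 and 0.57 ± 0.23 (limma adjusted p 0.0897, 0.106 and 0.166). Of 45 cytosolic ribosomal protein genes, a list that includes a few paralogs, 0 passed by limma, and 19 were higher and 1 lower unadjusted (median 0.16). The groups nevertheless lay apart for most of them: 40 of 45 had a positive fold change, in 36 all double knockout values lay above all wild type values, and in 1 all lay below. The summed linear signal of the 49 with a probe set, tested or not, was 316237 to 330085 in double knockout, against 284129 to 293400 in wild type jejunum, without overlap. With limma's variance prior fitted to the mean level and made robust, 15 of the 45 passed as higher. With that prior 5.37% of all probe sets were called higher, against 2.54% in the main analysis, so the count of 0 depends on it. The smallest p-values were those of the paralogs Rpl7l1 and Rpl22l1 and of Rps25, with log2 fold changes of 0.38 ± 0.10, 0.26 ± 0.08 and 0.58 ± 0.16 (limma adjusted p 0.0801, 0.0904 and 0.0870). Of 73 mitochondrial ribosomal protein genes, 7 rose, 0 fell and 66 did not pass (median 0.20), where 2.54% of all probe sets were called higher, with log2 fold changes of 0.57 ± 0.09, 0.54 ± 0.09 and 0.59 ± 0.10 for Mrpl47, Mrpl35 and Mrpl19 (limma adjusted p 0.0309, 0.0330 and 0.0344). In 37 of the 73 all double knockout values lay above all wild type values, and 18 passed with the other variance prior (5.37% of all probe sets). Without 1 mouse, between 0 and 1 mitochondrial ribosomal protein genes passed, the 1 call being without double knockout mouse 1. Without double knockout mouse 2, 1 polymerase I gene passed, against 0 in the other 5 fits that left out a mouse. Over 9673 genes, each on its brightest probe set, the median was 0.05.

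**Figure D4:**
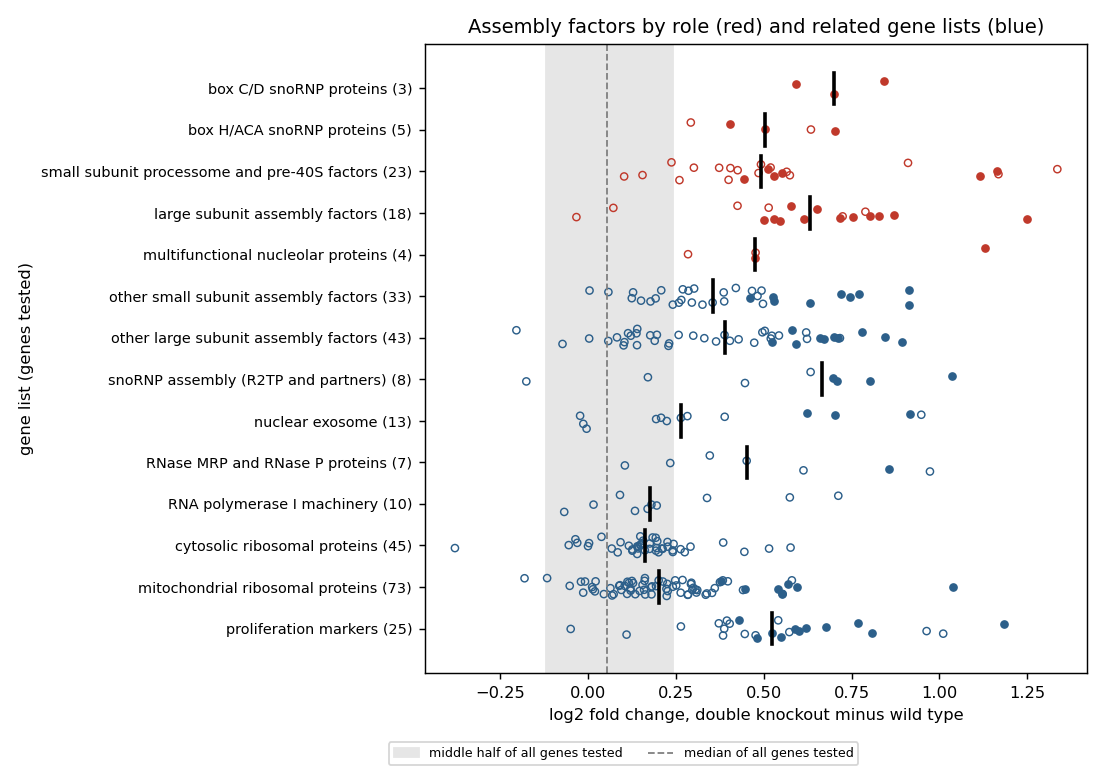
Log2 fold change, double knockout minus wild type, of every tested gene in the 5 role groups of the members (red) and in related gene lists (blue); filled points passed limma at the 0.05 threshold, black bars are medians, the grey band spans the interquartile range of all genes tested and the dashed line is their median (0.05). Medians of the member groups lie between 0.48 and 0.70; those of cytosolic ribosomal proteins and the RNA polymerase I machinery lie at 0.16 and 0.17.

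Cell type markers were read beside the members, because a piece of jejunum holds many cell types. Of 25 proliferation markers tested, 11 rose, 0 fell and 14 did not pass (median 0.52), where 2.54% of all probe sets were called higher. The spindle protein Hmmr rose by 0.68 ± 0.08, the mitotic kinase Plk1 by 1.18 ± 0.17 and the ubiquitin-conjugating enzyme Ube2c by 0.77 ± 0.11 log2 units (limma adjusted p 0.0189, 0.0256 and 0.0263). The summed linear signal of the 54 members with a probe set was 22616 to 25523 in double knockout, against 16680 to 17817 in wild type jejunum, without overlap. Without 1 mouse, between 0 and 7 proliferation markers passed, the 7 without double knockout mouse 2. Of 10 crypt stem cell markers, Igfbp4 rose (log2 fold change 0.52 ± 0.10, limma adjusted p = 0.0419) and 9 did not pass (median 0.25). The summed signal of all 12 crypt stem cell markers with a probe set, tested or not, was 8154 to 9483 in double knockout, against 6556 to 8584 in wild type jejunum, with overlap. Enterocyte markers had a summed signal of 141298 to 145841 in double knockout, against 148961 to 153208 in wild type jejunum, without overlap, and 0 of 15 passed by limma (0 higher and 1 lower unadjusted, median log2 fold change -0.06). In 7 of the 15 all double knockout values lay below all wild type values, as in 14.8% of all probe sets.

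Markers of the other cell types moved less clearly. Summed signals of Paneth (29903 to 40579 in double knockout, against 39729 to 43570 in wild type jejunum), goblet (39478 to 54746 in double knockout, against 42981 to 55628 in wild type jejunum), enteroendocrine (3229 to 5089 in double knockout, against 3969 to 4294 in wild type jejunum), fibroblast (7052 to 9123 in double knockout, against 5452 to 7618 in wild type jejunum), smooth muscle (8475 to 10786 in double knockout, against 8751 to 10016 in wild type jejunum), endothelial (159 to 283 in double knockout, against 136 to 209 in wild type jejunum), macrophage and dendritic (2981 to 4311 in double knockout, against 2584 to 4103 in wild type jejunum) and T cell markers (506 to 976 in double knockout, against 580 to 768 in wild type jejunum) overlapped between the groups. B and plasma cell markers also overlapped, at 12648 to 13845 in double knockout, against 10940 to 12660 in wild type jejunum. In these 9 lists 0 markers passed by limma, with 4 higher and 2 lower of 67 at an unadjusted p of at most 0.05. The median log2 fold change was 0.48 for 11 fibroblast markers, the farthest from 0 of the 9. Tuft cell markers did not overlap, at 106 to 136 in double knockout, against 185 to 231 in wild type jejunum; Rgs13 fell by 1.00 on the log2 scale (limma adjusted p = 0.0321), while Dclk1, Trpm5, Pou2f3, Il25 and Sh2d6 lay under 4 on all arrays. Among pancreatic markers Prss2, Cpa1 and Ctrb1 lay under 4 on all arrays. The summed signal of the list, 185 to 230 in double knockout, against 132 to 160 in wild type jejunum, did not overlap and came almost wholly from the elastase gene Cela1, which had log2 levels of 7.69, 7.75 and 7.42 in double knockout mice, against 6.87, 6.96 and 7.18 in wild type mice and did not pass (log2 fold change 0.62 ± 0.13, limma adjusted p = 0.0506). The red cell markers Hba-a1 and Alas2, the glial markers Gfap and S100b and the mast cell markers Cpa3, Mcpt1 and Mcpt2 lay under 4 on all arrays. Kit, in the same list as the mast cell markers, had log2 levels of 5.40, 5.30 and 5.48 in double knockout mice, against 5.62, 5.36 and 5.07 in wild type mice. Its log2 fold change was 0.04 ± 0.15 (limma adjusted p = 0.875). Of 5 nerve and glia markers with a probe set, 4 lay under 4 on all arrays and 0 were tested. The part of all these cell types in the result was not tested.

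**Figure D5:**
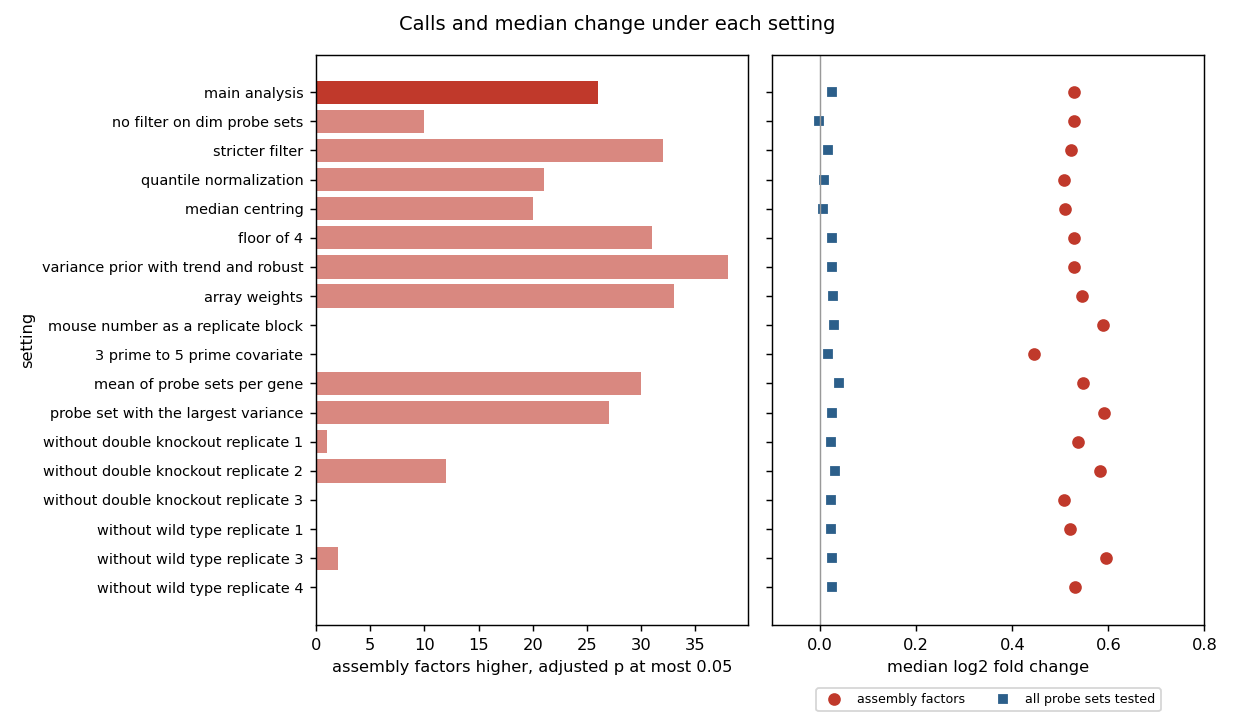
Number of assembly factors that passed as higher at an adjusted p of at most 0.05 (left) and their median log2 fold change beside that of all probe sets tested (right), in the main analysis and under each alternative; replicate numbers are mouse numbers. The count runs from 0 to 38, while the median of the assembly factors stays between 0.45 and 0.59.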

How the data were processed

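RNA of 3 double knockout and 3 wild type jejuna, 500 ng each per the labels' protocols, was hybridised to 1 array per mouse. The authors deposited 1 log2 value per probe set, summarised by GCRMA (version 2.18.0 in the submitters' processing notes); no header gives its settings, and the log2 scale was read from the values. GCRMA models background from probe sequence, and dim values carry little information.

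Gene names came from the platform annotation, in which 34958 probe sets had 1 symbol, 932 several and 9211 none. Of the 45101 probe sets, 64 controls and those not above 4 on at least 3 of the 6 arrays were left out. The other 18013 were fitted with lmFit and eBayes of limma 3.58.1 (R 4.3.3), and double knockout was set against wild type in a two-sided test with Benjamini-Hochberg adjustment and a threshold of 0.05. Errors of fold changes are SE from this fit. The fit was also run on simulated arrays with known changes. In these each probe set varied independently, so deviations shared between genes were not covered. No array was a copy: any pair within a group differed by more than 0.1 at no less than 62.5% of probe sets. The members, lists and tests were chosen with earlier results of these data known. Any member may be named, with the 3 genes of smallest p in each other list and markers that passed. Ruvbl2, Lct, Cela1, Kit and markers under 4 were named after their values were seen. The alternatives cover the filter, normalization, floor, variance prior, array weights, mouse number, RNA quality, probe set choice and each mouse left out.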

Additional observations from a re-analysis of the deposited data

How the results depend on the processing

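With the filter on dim probe sets removed, 10 assembly factors passed instead of 26, with 45037 probe sets tested instead of 18013. Of all probe sets, 0.588% were then called higher, against 2.54% in the main analysis. With the 3′ to 5′ difference as a covariate 0 passed by limma (37 higher at an unadjusted p of at most 0.05, against 9.02% of all probe sets). The fits that left out 1 mouse gave between 0 and 12. With the mouse number as a replicate block 0 passed (42 higher and 0 lower unadjusted, median 0.59), a fit that rests on mice 1 and 3 of each group, since mouse 2 and mouse 4 have no partner; the labels do not tie these numbers to a shared litter or batch, and same-numbered arrays had correlations of deviations of 0.02 and 0.30, so the numbers were not taken as pairs. Every other pathway list had 0 calls with the block or the covariate. The trended and robust prior gave 13 of 23 small subunit members, 4 of 4 multifunctional proteins, 5 of 13 exosome genes, 18 of 25 proliferation markers and 15 of 45 cytosolic ribosomal proteins, against 6, 2, 3, 11 and 0 in the main analysis. With that prior 5.37% of all probe sets were called higher, against 2.54% in the main analysis. Over all probe sets, 2 were higher with the block and 5 with the covariate. The other alternatives (a stricter filter, quantile normalization, median centring, a floor of 4, another variance prior, array weights, the mean of a gene's probe sets, and the probe set with the largest variance) gave between 20 and 38. In these, the share called higher of all that was tested lay between 2.17% and 5.58%. The count of members that fell was 0 by limma in every alternative run, adjusted or unadjusted, and the median log2 fold change lay between 0.45 and 0.59. Leaving out 1 mouse moved the median over 0.51 to 0.59. With the probe set of largest variance, Rpf2 turned from -0.03 to 0.89. The causes of these shifts were not tested.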
